A study of Xenopus tropicalis with 36 samples.

Results

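The genes described here are those that the deposited gene ontology file assigns directly to muscle contraction. Potassium, sodium and calcium channel genes whose symbols begin with kcn, scn or cacn were removed. Of 157 genes with the term, 150 had a row in the count table, 16 channel genes were left out, and 134 members remained of 25774 genes. They were followed in whole *Xenopus tropicalis* embryos of the out-bred Nigerian strain that lacked, or were depleted of, the Brachyury paralogs *t* and *t2*, T-box transcription factors that act in the posterior mesoderm from which trunk and tail muscle arises. In the KO experiment, *t/t2* KO, *t/t2* het and wild-type siblings came from 3 crosses between double heterozygotes (crosses 1, 2 and 9), and all of them stem from frogs that carry the e1.2D deletion of *t* and the e3.7D deletion of *t2* on the same chromosome. In the knockdown experiment, embryos from the eggs of 3 frogs (D, E and F) received, as zygotes, 18 ng of a mix of morpholino oligomers (MOs) against *t* and *t2* or 18 ng of a control MO (cMO), or were left uninjected. By the paper's methods, the mix combined translation-blocking and splice-blocking MOs for each paralog. These MOs were tagged with sulforhodamine, whereas the cMO was untagged. Each of the 36 poly(A) RNA libraries pooled sibling embryos of 1 clutch, at mid-tailbud stage 26 or late tailbud stage 34, with 3 libraries per condition and stage.

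In a muscle fibre, acetylcholine released by the motor nerve opens the nicotinic receptor, the action potential travels along the membrane, calcium leaves the sarcoplasmic reticulum through release channels held at the triad, and actin and myosin filaments slide within sarcomeres that are braced by M-band and Z-disc proteins. The dystrophin complex ties this apparatus to the membrane, and creatine phosphate buffers its ATP. Heart and smooth muscle add gap junctions, which pass the signal between cells, and peptide hormone receptors. The embryonic axis of the frog is dominated at these stages by the myotomes, the skeletal muscle of the somites.

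The members covered this machinery unevenly. Of 42 contractile genes looked up by their textbook symbols (actins, myosins, troponins, tropomyosins, ryanodine receptors and the like), 37 had a row in the count table and 0 carried the term. The term held the accessory parts instead: 3 acetylcholine receptor subunits, 10 sarcomere genes, 6 genes of the dystrophin complex, 8 of the calcium store and calmodulin, 13 connexins, 4 of creatine supply, 6 ferlins, 14 ion channels and pump regulators, 22 receptors and G proteins, 12 cell adhesion and cytoskeleton genes, 3 small heat shock proteins, 11 transposon-like gene models and 22 others. Several models without a symbol are described as potassium channels and stayed in, since the channels were removed by symbol. The label "muscle contraction" thus names the annotation of these genes, and many of them are also expressed outside muscle.

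The libraries held between 30225504 and 52401214 fragments on genes. The level of *t2*, the second Brachyury paralog, matched the labels: it had 0 to 4.05 normalized counts in the 6 *t/t2* KO libraries, against 636 to 992 in wild-type siblings, and 4.66 to 59.8 after the *t/t2* MO mix, against 668 to 1489 in uninjected embryos. The paper reports that Brachyury regulates *t2*, so this is no direct check of the lesions. The log2 differences of *t* were -3.48 to -2.37 in *t/t2* KO and 0.40 to 0.81 in het pairs with wild-type siblings. They were -1.13 to -0.58 in *t/t2* MO pairs with uninjected embryos. The members took 0.662% of gene fragments in *t/t2* KO libraries (median of 6; 0.634 to 0.684%), against 0.716% in wild-type siblings (0.677 to 0.743%). In the knockdown experiment their share was 0.639% in *t/t2* MO libraries (0.609 to 0.669%), 0.686% in cMO libraries (0.660 to 0.748%) and 0.687% in uninjected libraries (0.672 to 0.742%). Skeletal muscle markers (*myod1*, *myf5*, *myf6*, *myog*, *ckm*, *pvalb*, *actn3*, *mylpf*) fell with them: 7 of 8 were called lowered in *t/t2* KO and 6 of 8 in *t/t2* MO embryos, and none of the 8 was at 0. Their summed normalized count was 66660 to 90530 in *t/t2* KO, against 136400 to 205400 in wild-type libraries, and 55690 to 95050 in *t/t2* MO, against 109200 to 233200 in uninjected libraries. Of the markers of other tissues (4 of blood, 4 of epidermis, 6 neural, 5 of notochord, 5 of smooth muscle), 1 of notochord was lowered and 1 of blood raised in *t/t2* KO, and 1 of blood and 1 of smooth muscle were lowered in *t/t2* MO embryos. The summed blood markers were at 3243 to 4691 in *t/t2* KO, against 1560 to 3167 in wild-type libraries, without overlap, and at 3259 to 5735 in *t/t2* MO, against 2614 to 4797 in uninjected libraries. None of the 6 neural markers was called, but their sum was also higher without overlap in *t/t2* KO, at 44220 to 50510, against 38480 to 41080 in wild-type libraries, and overlapped at 32690 to 40330 in *t/t2* MO, against 34140 to 39510 in uninjected libraries. The part of these tissues in the values below was not tested. In whole embryos, fewer muscle cells and less RNA per muscle cell cannot be told apart, and this holds for every value below.

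Expression of the members spanned a wide range, from a mean normalized count of 0 to 27070. Of the 134, 42 had a mean normalized count above 1000 over the control libraries (wild-type, het, uninjected and cMO), 26 lay between 100 and 1000, 30 between 7 and 100, and 36 at or below 7. The 98 members above 7 could be called. Per length of the longest transcript, the median level of the 130 members with a known length was 1.72 FPKM (fragments per kilobase, scaled to library size) in wild-type and uninjected libraries. The top was held by genes of general energy and calcium use: *ckmt1b*, the mitochondrial creatine kinase, stood at 379, *calm2*, which encodes calmodulin, at 161, and *gamt*, the last enzyme of creatine synthesis, at 185 FPKM. Next came Xetro.F00436, described as aspartyl beta-hydroxylase (*asph*), a gene that also encodes the triad protein junctin, at 104, the connexin model Xetro.I00079 at 103, *lsp1*, which codes for an actin-binding protein of leukocytes, at 86.1, and *pabpn1*, a poly(A)-binding protein gene, at 82.3. None of these genes was called in *t/t2* KO embryos. Of the 16 members lowered in *t/t2* KO, 15 had a mean count above 100, beside 68 of the 98 members that could be called. The 36 at or below 7 could not be called at all.

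**Figure D1:**
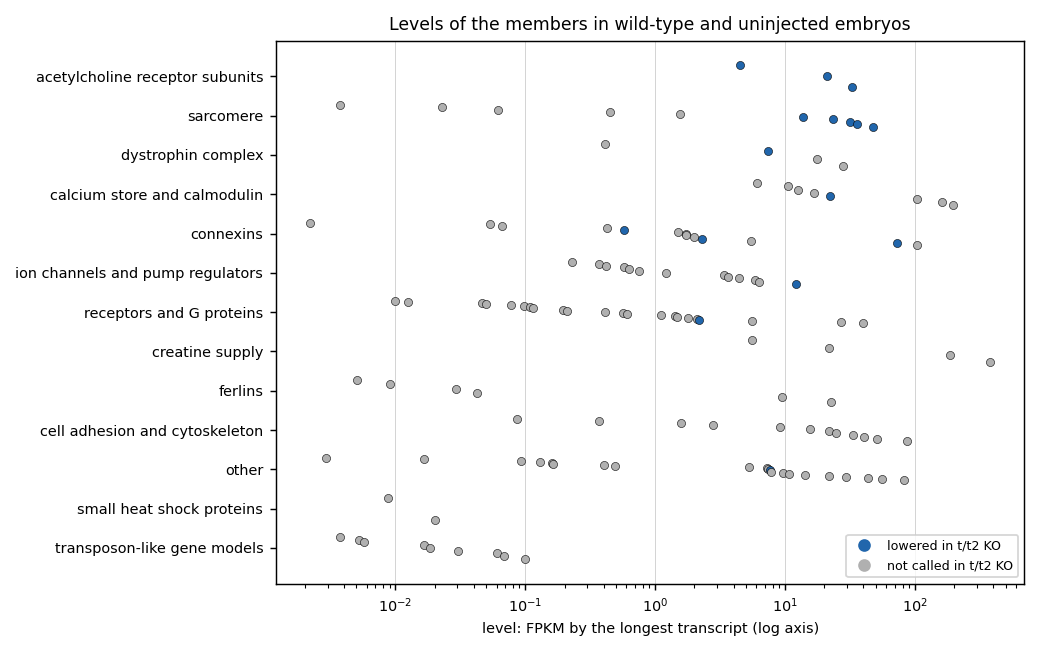
Level of each member in wild-type and uninjected libraries, in FPKM by the longest transcript (log axis), by family from top to bottom. Each point is 1 gene and blue points were lowered in *t/t2* KO embryos. Of 130 members with a length, 127 are drawn and 3 were listed at 0. All 3 acetylcholine receptor subunits and 5 sarcomere genes are blue, whereas the transposon-like models lie at the low end.

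In *t/t2* KO embryos the members that fell included all 3 acetylcholine receptor subunits and 5 sarcomere genes. Of the 98 members past the filter, 16 (16.3%) were lowered against wild-type siblings, whereas 2.97% of all 17983 genes tested were lowered. A call required a fold change of at least 1.5 and a false discovery rate (FDR) of at most 10% in edgeR's quasi-likelihood test over both stages. The median log2 fold change of the members was nonetheless -0.0072, against 0.0043 over all genes, with 51 members below 0 and 47 above it. Each of the 16 was lower in 6 of 6 clutch and stage pairs. The count of raised members was 0, against 0.467% of all genes raised. At an unadjusted p below 0.05, edgeR placed 3 members up and 25 down, and DESeq2 called 0 raised and 16 lowered.

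The 3 acetylcholine receptor subunits fell together. *chrnd*, the delta subunit present in embryonic and adult receptors, had 1227, 1129 and 1041 normalized counts in *t/t2* KO libraries of crosses 1, 2 and 9 at stage 26, against 2636, 2476 and 2865 in wild-type siblings. At stage 34 it had 739, 1030 and 831 counts in *t/t2* KO, against 3002, 2432 and 1863. No KO library reached any wild-type library at either stage, and the log2 fold change was -1.37 ± 0.11 (SE; FDR 5.11e-09). *chrng*, the gamma subunit of the embryonic receptor, had 1125, 927 and 1026 counts in *t/t2* KO, against 2811, 2529 and 3364 in wild-type embryos at stage 26, and 306, 461 and 337, against 1726, 1261 and 1053, at stage 34. Its groups did not overlap either, and its log2 fold change of -1.69 ± 0.14 (FDR 3.41e-09) was the largest fall of the 3. *chrnd* and *chrng* lie in tandem 4798 bases apart on scaffold 5 of the assembly used by the files (9555325 to 9571051 and 9575850 to 9586376, both on the plus strand). *chrne*, the epsilon subunit that replaces gamma in the adult receptor, fell by 0.95 ± 0.26 on the log2 scale (FDR 0.039), with 91.2, 33.0 and 84.4 counts in *t/t2* KO, against 103, 129 and 165 at stage 26, and 302, 313 and 117, against 548, 601 and 265, at stage 34. The stage 34 values overlapped, and without cross 2 the FDR of *chrne* was 0.102.

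Of the 8 sarcomere genes past the filter, 5 fell. *myom1* and *myom2*, the myomesins that cross-link myosin filaments at the M-band, had log2 fold changes of -0.96 ± 0.12 (FDR 2.31e-06) and -1.14 ± 0.13 (FDR 9.65e-07). *myot*, the Z-disc protein myotilin, had 1225, 1219 and 1149 counts in *t/t2* KO libraries, against 2089, 2197 and 2329 in wild-type libraries at stage 26, and 503, 521 and 702, against 1478, 1607 and 1419, at stage 34, a log2 fold change of -1.14 ± 0.11 (FDR 7.19e-08). *ankrd2*, a stretch-responsive ankyrin repeat protein of the sarcomere, had 1643, 2229 and 1524 counts in *t/t2* KO, against 4590, 5128 and 3222 in wild-type libraries at stage 26, and 1070, 1177 and 1838, against 3818, 3580 and 2937, at stage 34 (log2 fold change -1.32 ± 0.16, FDR 1.3e-06). In *myot* and *ankrd2*, as in both myomesins, every KO library lay below every wild-type library of its stage. *trim63*, a muscle ubiquitin ligase of the M-band, fell by 0.95 ± 0.13 (FDR 7.57e-06). The actin nucleators *lmod2* and *lmod1* stood at log2 fold changes of -0.39 and 0.19, and the weakly expressed *myom3* at 0.19, and none of the 3 was called.

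The triad and the dystrophin complex each held 1 lowered gene. *trdn*, triadin, which anchors the calcium release channel, had 827, 967 and 845 counts in *t/t2* KO, against 1613, 1970 and 1963 in wild-type embryos at stage 26, and 549, 745 and 626, against 2060, 2327 and 1192, at stage 34. The groups did not overlap, and the log2 fold change was -1.31 ± 0.15 (FDR 5.28e-07). The other 7 genes of the calcium store and calmodulin ranged from -0.21 to 0.04 and were not called. *sgca*, alpha-sarcoglycan, a muscle-specific member of the sarcoglycans, had 92.2, 143 and 100 counts in *t/t2* KO, against 273, 251 and 244 in wild-type libraries at stage 26, and 176, 201 and 128, against 479, 463 and 303, at stage 34 (log2 fold change -1.26 ± 0.16, FDR 5.96e-06).

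Among connexins, receptors and pumps, a few members fell. *avpr1a*, a vasopressin receptor that raises calcium through Gq, changed most of all members: 8.11, 5.83 and 4.28 counts remained in *t/t2* KO, against 276, 342 and 332 in wild-type siblings at stage 26, and 20.1, 35.3 and 18.6, against 56.6, 73.4 and 103, at stage 34 (log2 fold change -3.18 ± 0.53, FDR 0.000218). None of the other 13 receptors and G proteins past the filter was called, among them its relative *avpr2* (0.12). *gja1*, which encodes the most widespread connexin, had 42.6, 25.3 and 24.6 counts in *t/t2* KO, against 185, 232 and 192 in wild-type libraries at stage 26, and 198, 300 and 217, against 341, 566 and 429, at stage 34 (log2 fold change -1.66 ± 0.31, FDR 0.000979). The connexin model Xetro.H00559 fell by 1.07 ± 0.11 (FDR 1.03e-07). Xetro.B00595, a connexin model with at most 37.5 counts in the *t/t2* KO and wild-type libraries, fell by 1.80 ± 0.41 (FDR 0.00908), a call that was lost without cross 1. The remaining 7 connexins past the filter, including *gja4*, *gja5* and *gjc1*, were not called. *fxyd6*, a regulator of the sodium pump, fell by 0.83 ± 0.15 (FDR 0.000604) and *abcc12*, an ABC transporter, by 0.88 ± 0.16 (FDR 0.000747).

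Genes of cell adhesion, creatine supply and membrane repair were not called in *t/t2* KO. The 11 cell adhesion and cytoskeleton genes, such as *vcl* (vinculin), *tln1* and *tln2* (talins), ranged from -0.23 to 0.25 on the log2 scale. The 4 creatine supply genes ranged from -0.39 to 0.13, with *ckmt1b* at -0.08, and the 3 ferlins, membrane repair proteins, from -0.62 to 0.04. None of the small heat shock proteins or transposon-like models passed the filter.

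**Figure D2:**
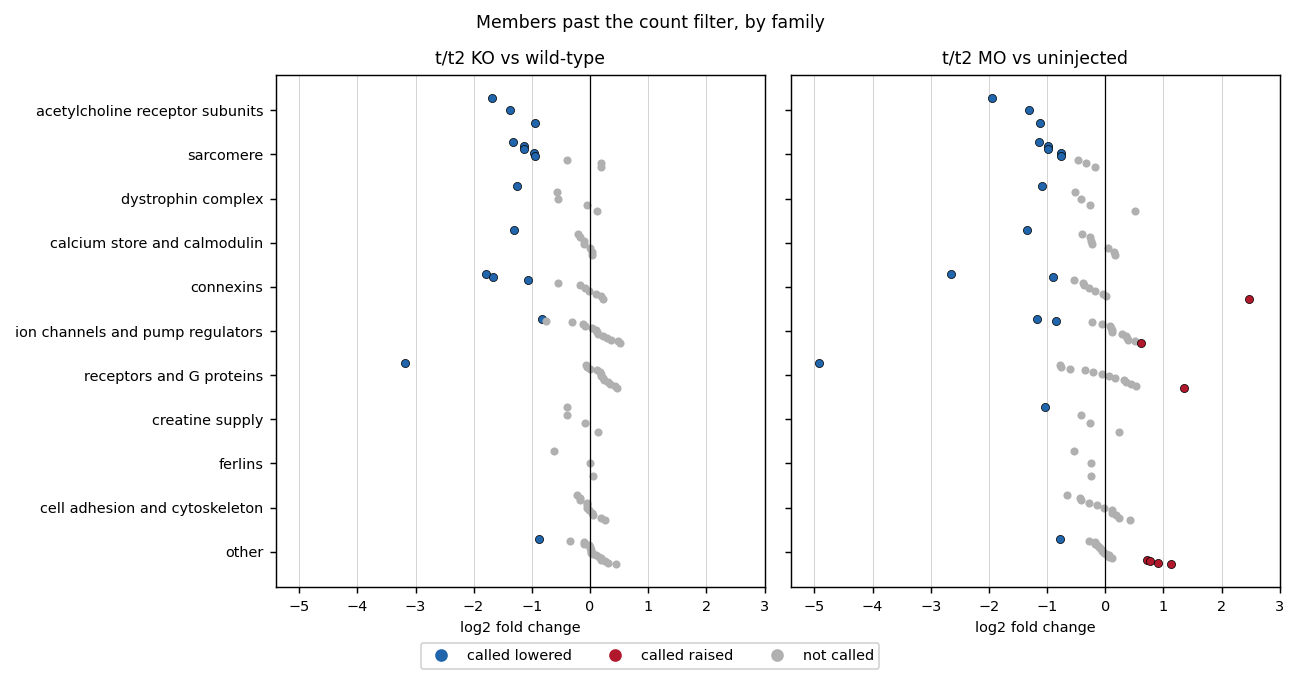
Log2 fold change of the 98 members past the count filter, by family from top to bottom. The left panel compares *t/t2* KO with wild-type and the right panel *t/t2* MO with uninjected embryos. Blue points were called lowered (16 and 17 genes) and red points raised (0 and 7 genes). The acetylcholine receptor and sarcomere rows are shifted to the left in both panels, while the red points occur in the right panel alone.

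The *t/t2* MO mix lowered nearly the same members. In *t/t2* MO embryos 17 members (17.3%) were lowered against uninjected embryos, beside 8.58% of all genes, and 7 (7.14%) were raised, beside 6.64% of all genes. The median log2 fold change was -0.17 for the members and -0.033 for all genes. The share of raised members was thus close to that of all genes. Of the 17 lowered members, 16 were lower in 6 of 6 pairs of the same frog and stage and *clcn1* in 5 of 6. The KO and knockdown comparisons share no library, and 15 members were lowered in both, which is 93.8% of the *t/t2* KO list and 88.2% of the *t/t2* MO list. Over all genes 392 were lowered in both, which is 73.4% of the *t/t2* KO list and 25.4% of the *t/t2* MO list. *slc6a8* and *clcn1* were lowered by the MO mix alone and Xetro.B00595 in *t/t2* KO alone. Of these, the effects on *slc6a8* differed (below), whereas those on *clcn1* were not shown to differ (FDR 0.807). For Xetro.B00595 the FDR of the difference was 0.193, and 0.0354 with the clutch as a block (1.32 on the log2 scale), which made it a call. Set against cMO in place of uninjected embryos, the same 17 members were lower in *t/t2* MO (7.53% of all genes) and 7 were higher (6.1% of all genes). Among these 7, *lsp1* stood in place of Xetro.A00610, and *lsp1* was itself lowered in cMO against uninjected embryos (below).

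All 3 receptor subunits fell in morphants too. *chrnd* had 1871, 1409 and 1344 counts in *t/t2* MO libraries of frogs D, E and F, against 3585, 3031 and 2953 in uninjected siblings at stage 26, and 1421, 1026 and 961, against 3012, 2325 and 2303, at stage 34 (log2 fold change -1.12 ± 0.11, FDR 6.17e-08). *chrng* had 2449, 1731 and 1956 counts, against 4556, 4235 and 4721 in uninjected embryos at stage 26, and 503, 415 and 526, against 1357, 1288 and 1411, at stage 34 (-1.32 ± 0.096, FDR 1.15e-09). *chrne* had 25.9, 12.1 and 36.7 counts, against 90.2, 100 and 152 in uninjected embryos at stage 26, and 203, 161 and 134, against 857, 513 and 336, at stage 34 (-1.95 ± 0.24, FDR 2.17e-06). For all 3 subunits the *t/t2* MO and uninjected libraries did not overlap at either stage.

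Of the 8 sarcomere genes past the filter 5 fell again, with *lmod1*, *lmod2* and *myom3* not called, and *trdn* and *sgca* were again the lowered genes of the calcium store and the dystrophin complex. *trdn* fell by 1.34 ± 0.12 on the log2 scale (FDR 1.55e-08), *myot* by 1.14 ± 0.18 (FDR 4.17e-05), *sgca* by 1.08 ± 0.20 (FDR 0.000365), *myom1* by 0.99 ± 0.13 (FDR 3.73e-06) and *myom2* by 0.75 ± 0.13 (FDR 0.000119). *trim63* fell by 0.99 ± 0.12, *fxyd6* by 0.84 ± 0.10 and *abcc12* by 0.77 ± 0.15. At stage 26 the *t/t2* MO and uninjected libraries of *myom2* and *sgca* overlapped. *ankrd2* was less certain here: it had 1361, 1267 and 617 counts in *t/t2* MO, against 2962, 2566 and 759 in uninjected embryos at stage 26, and 1935, 2685 and 2866, against 2695, 3688 and 4546, at stage 34. Frog F was low in every condition at stage 26, the groups overlapped at both stages, and the log2 fold change of -0.76 ± 0.26 (FDR 0.0319) was no longer called without frog D (FDR 0.104) or without frog E (FDR 0.146). *clcn1*, the chloride channel that keeps muscle fibres from firing repeatedly, had at most 33.4 counts in the *t/t2* MO and uninjected libraries, and its call (-1.18 ± 0.45, FDR 0.0574) was lost whichever of the 3 frogs was left out.

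**Figure D3:**
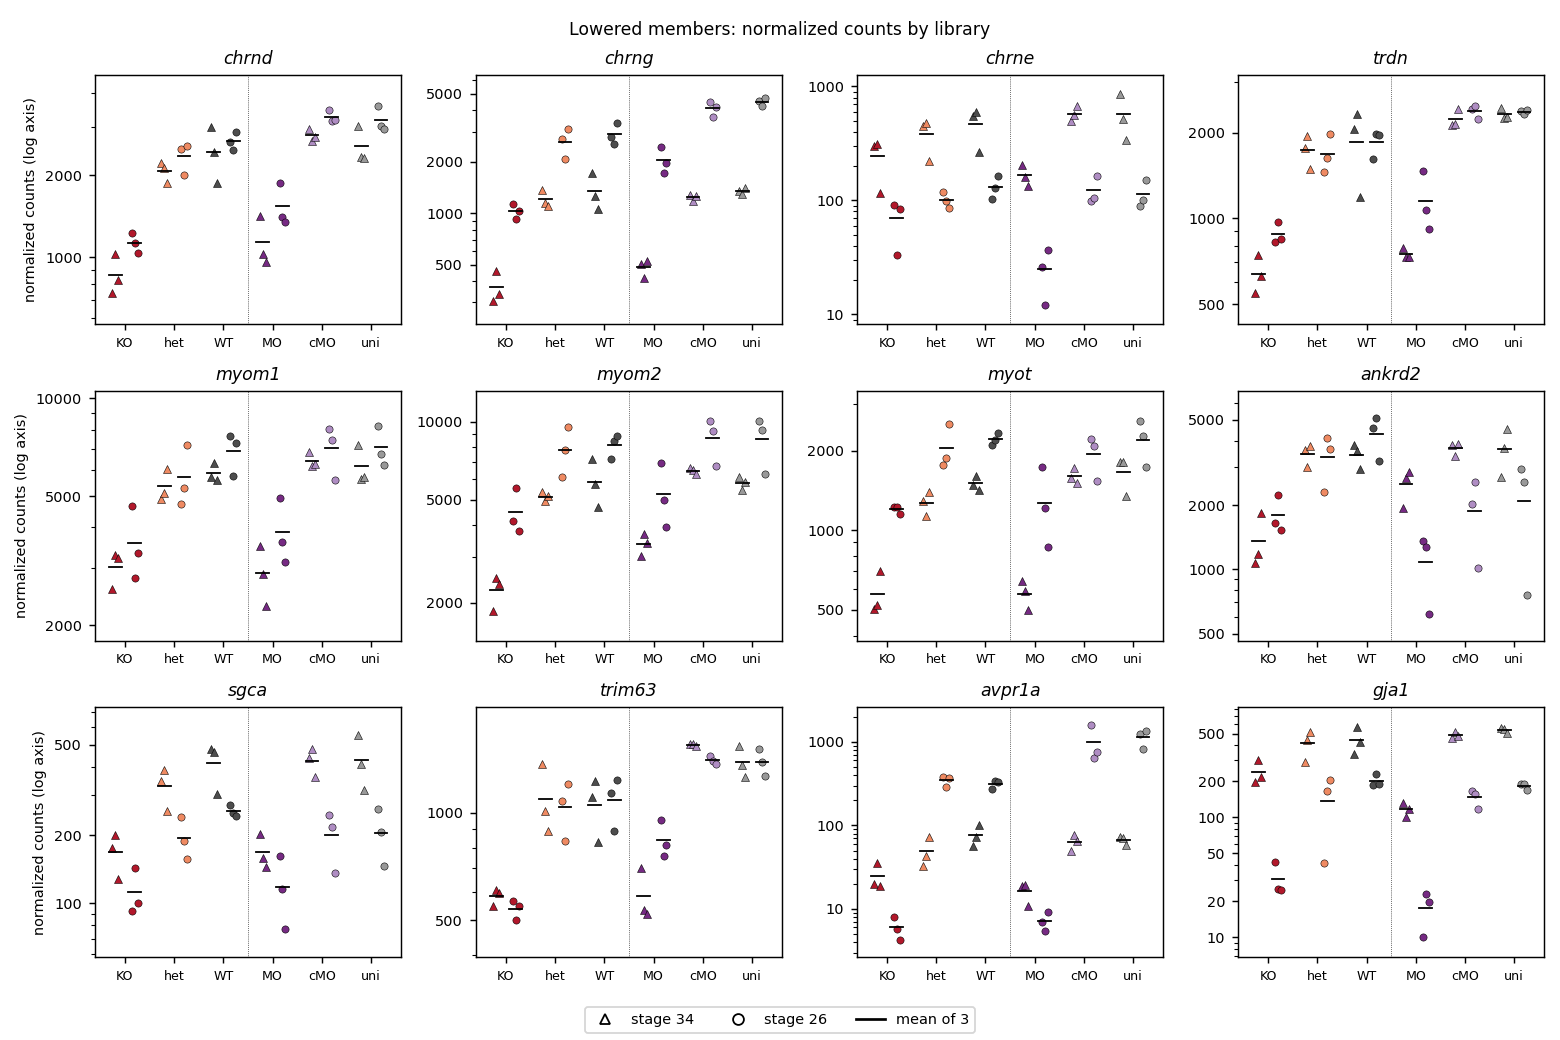
Normalized counts of 12 lowered members in each library (log axes that do not start at 0). In each panel KO, het and WT (wild-type) stand left of the dotted line and MO, cMO and uni (uninjected) right of it; triangles are stage 34, circles stage 26 and bars the mean of 3 libraries. KO points lie below WT points of their stage, except for *chrne* at stage 34, and MO points mostly below cMO and uninjected points. The het library of *gja1* at 41.8 counts lies among the KO points.

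Few members, like few genes at large, were called in het or cMO embryos. In *t/t2* het embryos 0 members were called against wild-type siblings (0.0222% of all genes were called); edgeR placed 2 members down and 0 up at an unadjusted p below 0.05, and DESeq2 called 0. The median log2 fold change was -0.029 for the members and -0.0046 for all genes. For 6 of the 16 members lowered in *t/t2* KO, at least 1 het library was no higher than the highest KO library of its stage. The matching share over all lowered genes was not computed, so this count describes single libraries and sets no trait of the members. The clearest was *gja1*, at 41.8 counts in the het library of cross 1 at stage 26, within the KO range of 24.6 to 42.6, against 165 and 205 in the other het libraries of that stage. In cMO embryos 1 member (1.02%) was called, a share close to the 1.42% of all genes. It was *lsp1*, with 6435, 6092 and 5780 counts in cMO, against 10364, 10563 and 9949 in uninjected libraries at stage 26, and 4615, 4225 and 4561, against 6810, 6539 and 6485, at stage 34 (log2 fold change -0.66 ± 0.057, FDR 3.29e-07). The *t/t2* MO libraries of *lsp1* did not show this fall, with 10244 to 11334 counts at stage 26 and 7879 to 8769 at stage 34. *lsp1* overlaps a gene on the opposite strand, as do *myom1* and *slc6a8*, and since the counting is not stated to use strand, reads of the overlapping part cannot be assigned.

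Most of the falls were called at each stage. In *t/t2* KO, *gja1*, Xetro.B00595 and *chrne* were not called at stage 34, nor *abcc12* and *chrne* at stage 26, and in *t/t2* MO *ankrd2* was called at neither stage and *clcn1* at stage 34 alone. In *t/t2* KO embryos 15 members were lowered at stage 26 (2.39% of all genes) and 13 at stage 34 (2.37% of all genes). In *t/t2* MO embryos 16 were lowered and 6 raised at stage 26 (6.88% and 4.28% of all genes), and 20 lowered and 5 raised at stage 34 (10.6% and 9.11% of all genes). *gamt* (-0.67 ± 0.21, FDR 0.0230) was among the members lowered by the MO mix at stage 34 but not over both stages.

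A difference in size between the stages was tested as an interaction. It was called for 1 member in *t/t2* KO (0.0278% of all genes) and for 9 members in *t/t2* MO (5.59% of all genes). *avpr1a* was called in each. Its log2 fold change in *t/t2* KO was -1.67 ± 0.31 at stage 34 and -5.68 ± 0.37 at stage 26 (difference 4.01 ± 0.49, FDR 0.00065), and in *t/t2* MO -2.07 ± 0.38 at stage 34 and -7.29 ± 0.41 at stage 26 (difference 5.22 ± 0.62, FDR 0.000227). In *t/t2* MO embryos *avpr1a* had 18.6, 19.5 and 10.8 counts at stage 34 and 6.98, 5.49 and 9.16 at stage 26, whereas uninjected embryos had 72.9, 71.7 and 58.2 counts at stage 34 and 1260, 815 and 1342 at stage 26. The level thus fell with stage in uninjected embryos, and was low at both stages in morphants. *gja1* also differed less from uninjected embryos at the later stage, with -2.23 ± 0.18 at stage 34 and -3.39 ± 0.22 at stage 26 (difference 1.16, FDR 0.0278). *trdn* fell more at the later stage, with -1.66 ± 0.13 at stage 34 and -1.04 ± 0.12 at stage 26 (difference -0.62, FDR 0.0497). Apart from *avpr1a*, these differences were sensitive to single clutches: 1 member remained called without frog E and 5 were called without frog F.

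Many members, like many genes at large, changed between the stages. In wild-type embryos 16 members (16.3%) rose at stage 34 relative to stage 26, beside 12% of all genes, and 12 (12.2%) fell, beside 5.47%. In uninjected embryos 25 (25.5%) rose, beside 19.9% of all genes, and 20 (20.4%) fell, beside 12%. The medians were -0.12 in wild-type and -0.035 in uninjected embryos for the members, against -0.012 and -0.0035 for all genes. In both backgrounds 16 members rose, which is 100% of those raised in wild-type embryos (90.7% over all genes) and 64% of those raised in uninjected embryos (54.6% over all genes), and 10 fell, which is 83.3% of those lowered in wild-type embryos (88.9% over all genes) and 50% of those lowered in uninjected embryos (40.7% over all genes). The connexins *gja1*, *gja4* and Xetro.H01339 were among those that rose in both. *gja4* rose by 2.58 and 2.72 on the log2 scale and *glra1*, a glycine receptor subunit of motor circuits, by 1.73 and 2.97 in wild-type and uninjected embryos.

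Other members were near the limit of detection at either stage. *npbwr2*, a neuropeptide receptor gene, had 0 counts in the 3 uninjected libraries at stage 26 and 54 at stage 34, which makes it at least 17.0-fold higher (taking 3 counts over the group as the floor). *clcn1* had 81 counts in uninjected libraries at stage 34 and 2 at stage 26, a ratio of 38.3 (95% exact interval 10.3 to 321.5, counting error only). The ferlin model Xetro.A03089 ran the other way in uninjected libraries, with 2 counts at stage 34 and 86 at stage 26, 45.5-fold higher at stage 26 (12.2 to 381.6). Wild-type embryos also gave calls for these 3 genes in the same directions, but with smaller changes. There the log2 changes of all members past the filter lay between -2.02 and 3.11. All 3 ferlins past the filter fell with stage in both backgrounds, with *myof*, myoferlin, at -0.98 in wild-type and -1.22 in uninjected embryos. *avpr1a*, *chrng*, *abcc12* and Xetro.K03435 were the other named members that fell.

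The gamma subunit fell and the epsilon subunit rose with stage in control embryos. *chrng* fell by 1.11 in wild-type (FDR 0.000309) and by 1.72 in uninjected embryos (FDR 1.67e-09) at stage 34 relative to stage 26, whereas *chrne* rose by 1.84 (FDR 0.00193) and 2.34 (FDR 7.24e-06). Epsilon as a share of gamma plus epsilon fragments per kilobase was 40.3% ± 12.3 in *t/t2* KO, 25.0% ± 6.59 in het and 26.9% ± 6.42 in wild-type embryos at stage 34 (SD, n = 3 each). At stage 26 it was 6.61% ± 2.53 in *t/t2* KO, 4.09% ± 1.05 in het and 4.67% ± 0.775 in wild-type embryos. In the knockdown experiment it was 27.0% ± 4.86 in *t/t2* MO, 33.2% ± 3.46 in cMO and 30.3% ± 10.0 in uninjected embryos at stage 34, and 1.28% ± 0.630 in *t/t2* MO, 3.13% ± 0.858 in cMO and 2.64% ± 0.642 in uninjected embryos at stage 26. The share was higher at stage 34 in all 6 conditions. Between conditions, the libraries of *t/t2* KO and wild-type embryos overlapped at both stages and those of *t/t2* MO and uninjected embryos at stage 34, while at stage 26 the *t/t2* MO libraries (0.745 to 1.98%) lay just below the uninjected ones (2.08 to 3.34%). Within crosses the *t/t2* KO share was above that of wild-type siblings at stage 34 in each of the 3 (51.4 against 25.5%, 42.2 against 33.9% and 27.2 against 21.3%). At stage 26 it was above in crosses 1 and 9 but below in cross 2 (3.69 against 5.21%). The *t/t2* MO share at stage 34 was below that of uninjected siblings in frogs D (30.27 against 40.45%) and E (29.40 against 29.99%), and above in frog F (21.46 against 20.41%). These differences were not tested.

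**Figure D4:**
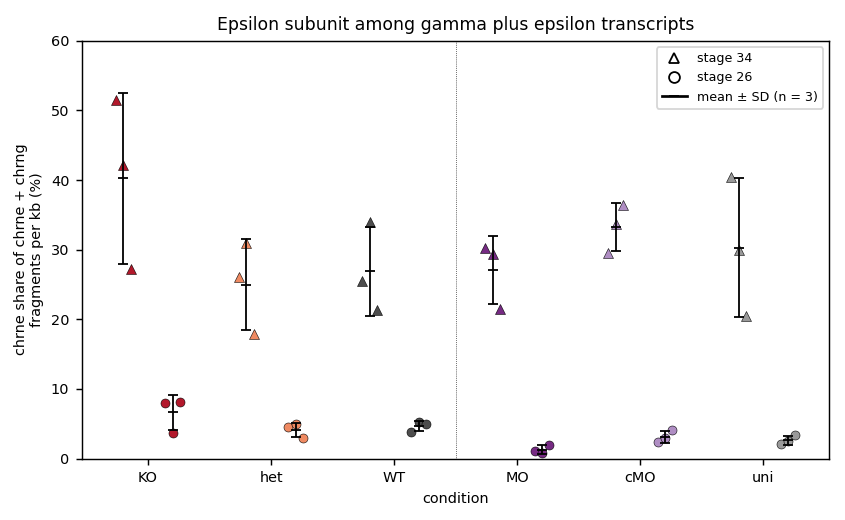
Share of *chrne* in *chrne* plus *chrng* fragments per kilobase (%), by condition, with KO, het and WT (wild-type) left of the dotted line and MO, cMO and uni (uninjected) right of it. Points are libraries (triangles stage 34, circles stage 26) and bars the mean ± SD of 3. All stage 26 points lie under 10% and all stage 34 points above them.

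Direct comparison of the KO and MO effects separated 6 members. The MO effect was the higher in 4.08% of the 98 members past the filter and the lower in 2.04%, beside 8.97% of all genes called in either direction. The members thus did not differ more often than genes at large. *slc6a8*, the plasma membrane creatine transporter, was lowered by the MO mix and not called in *t/t2* KO. It had 506, 743 and 538 counts in *t/t2* KO, against 541, 804 and 706 in wild-type libraries at stage 26, and 2013, 2521 and 1692, against 1054, 2093 and 1386, at stage 34 (log2 fold change 0.13 ± 0.18, FDR 0.838). In *t/t2* MO it had 194, 191 and 164 counts, against 488, 537 and 338 in uninjected libraries at stage 26, and 895, 1100 and 853, against 1705, 1812 and 1365, at stage 34 (-1.04 ± 0.15, FDR 2.04e-05). The MO libraries lay below all uninjected libraries at both stages, and the MO effect minus the KO effect was -1.17 ± 0.25 (FDR 0.00149). Under cMO, *slc6a8* was not called, but its log2 differences from uninjected embryos at stage 26 were -0.41, -0.26 and -0.63 in frogs D, E and F. At stage 34 they were -0.32, 0.03 and 0.17. Against cMO, *slc6a8* was still called lowered in *t/t2* MO. Another gene described as a creatine transporter, Xetro.H00218, was at -0.27 in *t/t2* MO and -0.39 in *t/t2* KO and was not called.

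*tbx20*, a T-box transcription factor of the heart, rose in morphants. It had 998, 1238 and 1129 counts in *t/t2* MO, against 659, 675 and 665 in uninjected embryos at stage 26, and 937, 1160 and 1039, against 615, 586 and 566, at stage 34 (0.77 ± 0.076, FDR 9.85e-08). In *t/t2* KO *tbx20* was at 0.10, with groups that overlapped at stage 34, and the difference between the effects was 0.68 ± 0.14 (FDR 0.00176). Some heart markers moved with it: 4 of the 7 past the filter were raised in *t/t2* MO (*nkx2-5* by 0.60, *tbx5* by 0.80, *gata4* by 0.62 and *hand1* by 0.65 on the log2 scale), whereas all 7 lay between -0.13 and 0.22 in *t/t2* KO and were not called. The remaining marker, *nppa*, was under the filter and went the other way in *t/t2* MO at stage 34. Its log2 differences from uninjected embryos were -2.52, -4.86 and -2.97 in frogs D, E and F. The summed count of the 8 heart markers was 11290 to 14070 in *t/t2* MO, against 7845 to 9179 in uninjected libraries, and 8212 to 11050 in *t/t2* KO, against 7074 to 9014 in wild-type libraries; none of the markers was at 0 throughout, and their part in the rise of *tbx20* was not tested.

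Among the members past the filter, the connexin model Xetro.H01339 showed the largest rise. It had 197, 315 and 361 counts in *t/t2* MO, against 26.7, 25.1 and 29.8 in uninjected embryos at stage 26, and 164, 224 and 210, against 83.2, 65.6 and 51.3, at stage 34 (2.46 ± 0.28, FDR 1.01e-06). In *t/t2* KO Xetro.H01339 was at 0.10, and the difference was 2.38 ± 0.36 (FDR 1.54e-05). It is a single exon of 879 bases (scaffold 8, 65458801 to 65459679) that overlaps a gene on the opposite strand, so reads of that gene cannot be told apart from its own. Xetro.A01442, described as a leukotriene B4 receptor, had 616, 386 and 339 counts in *t/t2* MO, against 235, 173 and 136 in uninjected embryos at stage 26, and 334, 286 and 271, against 84.9, 125 and 123, at stage 34 (1.35 ± 0.21, FDR 5.03e-05). The *t/t2* KO effect on Xetro.A01442 was 0.47 (FDR 0.311) and the difference 0.87 (FDR 0.063). *clcn2*, a widely expressed chloride channel gene, was called in neither comparison alone (0.29 in *t/t2* MO and -0.31 in *t/t2* KO), but the difference of 0.61 passed (FDR 0.00195), and cMO shifted *clcn2* by 0.26 as well. *chrne* was the second member with the larger fall in morphants (difference -0.99 ± 0.37, FDR 0.0933). The differences of Xetro.A01442, *clcn2* and *chrne* were each lost without at least 1 clutch, and 3 of the 6 remained without cross 1.

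The other 4 raised members were low in level or overlapped the control libraries at either stage, and their differences from the *t/t2* KO effect were not called, except for *cps1* with the clutch as a block (1.26 on the log2 scale, FDR 0.0699). Xetro.D00311, described as a potassium channel subunit, rose by 0.62 ± 0.17 (FDR 0.00852), Xetro.A00610, described as an oxysterol-binding protein, by 0.91 ± 0.23 (FDR 0.00496), *cps1*, which codes for the carbamoyl-phosphate synthase of the urea cycle, by 1.13 ± 0.45 (FDR 0.0714) and *pabpn1l*, a poly(A)-binding protein gene, by 0.72 ± 0.28 (FDR 0.0582). Xetro.A00610 stood at 0.71 ± 0.23 in cMO embryos as well (FDR 0.140) and at 0.19 in *t/t2* MO against cMO. *cps1* varied between frogs, with 106, 60.4 and 141 counts in *t/t2* MO, 6.35, 8.60 and 19.3 in cMO and 49.7, 5.45 and 44.6 in uninjected embryos at stage 26.

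**Figure D5:**
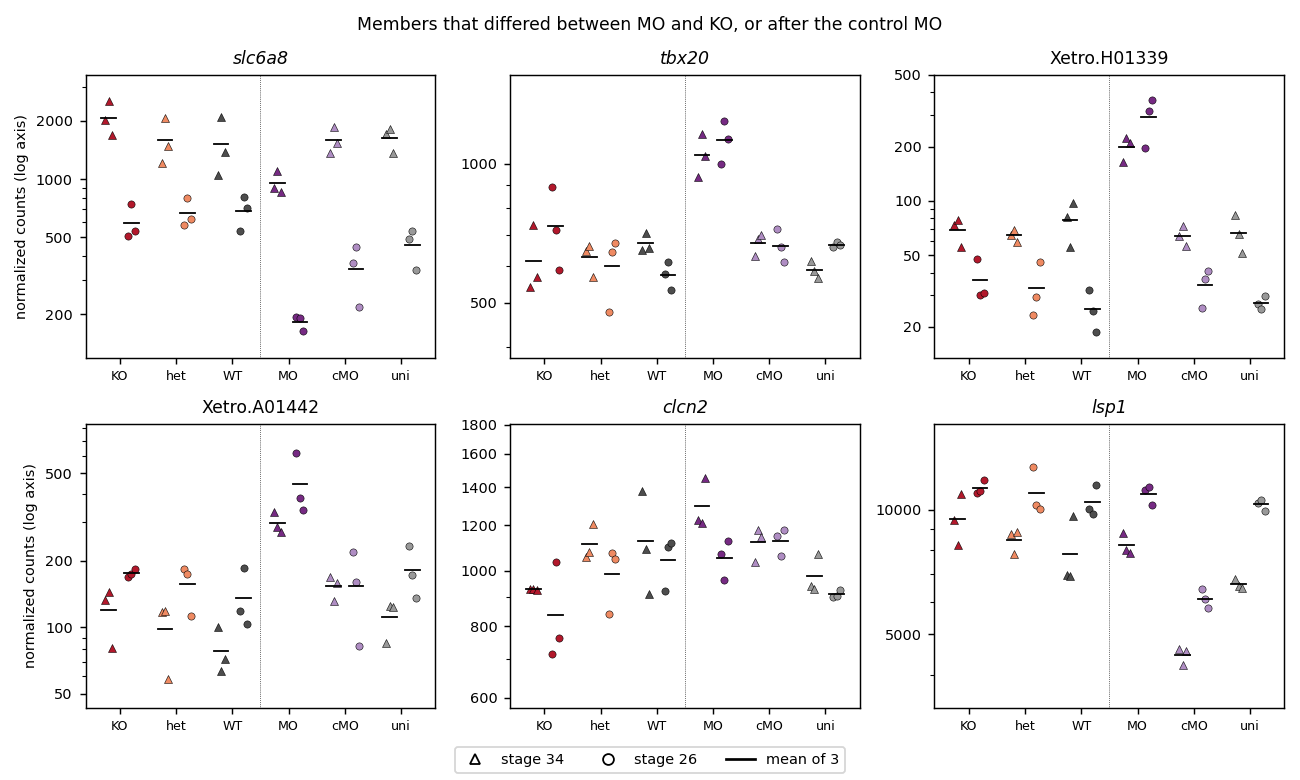
Normalized counts in each library of 5 members whose *t/t2* MO and *t/t2* KO effects differed, and of *lsp1*, the member called after the control MO (log axes that do not start at 0). KO, het and WT (wild-type) stand left and MO, cMO and uni (uninjected) right in each panel; triangles are stage 34, circles stage 26 and bars the mean of 3 libraries. The MO points of *tbx20*, Xetro.H01339 and Xetro.A01442 lie above the cMO and uninjected points of their stage.

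Muscle genes outside the term fell as well. Of 30 such genes in 4 lists (myogenic regulators, sarcomere assembly factors, energy metabolism, and calcium buffers and triad genes), 19 were lowered in *t/t2* KO, beside 2.97% of all genes (median log2 fold change -0.86). In *t/t2* MO 18 were lowered and 2 raised, beside 8.58% and 6.64% of all genes (median -0.70). The lists are not independent of the skeletal muscle markers above, with which they share *myod1*, *myf5*, *myf6*, *myog*, *ckm* and *pvalb*. In each of *t/t2* KO and *t/t2* MO, 5 of 12 myogenic regulators were lowered, with *myod1*, the master regulator of skeletal muscle, at -1.57 ± 0.31 and -1.58 ± 0.14 and *myf5*, which acts beside it in early myoblasts, at -1.60 ± 0.16 and -1.05 ± 0.10. *ckm*, the muscle creatine kinase, stood at -1.05 and -1.12, *casq1*, the calcium buffer of the reticulum, at -0.95 and -1.38, *stac3*, a triad adaptor, at -1.17 and -0.93, and *unc45b*, a myosin chaperone, at -0.98 and -1.06 in *t/t2* KO and *t/t2* MO. The 2 raised in *t/t2* MO were *pax3*, a regulator of muscle precursors and neural crest (0.60), and *hsp90aa1.1*, a chaperone of myosin folding (0.66), and neither was called in *t/t2* KO.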

How the data were processed

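Poly(A) RNA of pooled embryos was sequenced as paired-end TruSeq libraries; the submitters' processing notes name CASAVA 1.8.2, Bowtie2 2.1.0, TopHat2 2.0.10 and DESeq2, and the count table was used as deposited: whole, unnormalized counts of fragments per gene, for which no stranded counting is stated. Entries that name no gene (ribosomal, mitochondrial, unmapped) were left out; they took 0.0706 to 0.462%, 0.00592 to 0.0582% and 27.3 to 34.0% of each library.

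Gene IDs came from the deposited ontology file, and positions, lengths and strands from the deposited annotation. Each experiment was fitted in edgeR 4.0.16 (R 4.3.3; quasi-likelihood test, TMM scaling, stage and condition as factors, all 18 libraries), with Benjamini-Hochberg adjustment over 25209 genes (knockdown) and 24952 genes (KO). The effects of a condition at 1 stage, the stage by condition interaction and the stage contrasts came from a separate fit of the same 18 libraries, with a mean per group. The MO effect minus the KO effect came from a joint fit. A call needed an FDR of at most 10%, a fold change of at least 1.5 and a mean normalized count above 7 over wild-type, het, uninjected and cMO libraries. The SE of a log2 fold change was derived as its absolute value over the square root of the F statistic of the quasi-likelihood test. It is therefore approximate, above all for members with few counts. The scripts were tested on simulated data. Alternatives were DESeq2 1.42.0, other scaling, filters and thresholds, fewer samples in the fit, a clutch block and leaving out each clutch.

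Replicate names mark the frog or cross, so libraries of a clutch share parents. Deviations from group means correlated within clutches (mean r 0.301 and lowest 0.123 in the knockdown, 0.293 and 0.0811 in the KO experiment, 45 pairs each). The means between clutches (-0.15 and -0.147, 90 pairs each) carry no separate information. Deviations cancel within each group of 3 libraries, which makes these means negative whenever those within clutches are positive. Replicates were separate clutches, and no 2 libraries held the same values (correlation of log2 levels 0.897 to 0.993). Precision is limited by the 3 clutches of each experiment, and the parts of clutch and depth in the spread were not separated.

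Named members were the 10 largest called changes in each direction among genes that bear a symbol, average 50 counts or more and keep 1 sign in 6 of 6 pairs, the 8 highest levels, calls in cMO or het, the 3 largest interactions or MO and KO differences, and the 5 largest stage changes in each direction. Others are named to account for each call and for near relatives, after their values were seen. The members, lists and contrasts were chosen with earlier results of these data known, and the families were made from the deposited descriptions after the files were seen, because the role groups set by symbol took in 32 members only. Sequences were not used here. Some genes that the rule takes in are not reported here.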

Additional observations from a re-analysis of the deposited data

Results flagged for a closer look

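The items below had effects that differed between stages or between the *t/t2* MO and the *t/t2* KO, by edgeR's test of the difference itself (stage 34 minus stage 26, or MO minus KO, on the log2 scale). They follow the calls given above, and no cause was tested.

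Between stages in *t/t2* KO, *avpr1a* differed by 4.01 (FDR 0.00065). In *t/t2* MO, *avpr1a* differed by 5.22 (FDR 0.000227) and *gja1* by 1.16 (FDR 0.0278), so both deviated less from uninjected embryos at stage 34 than at stage 26. Xetro.C00281, described as a sorbin and SH3 domain protein, differed by 2.07 (FDR 0.0472), with 22.4, 36.1 and 32.3 counts in *t/t2* MO, against 7.72, 9.62 and 16.0 in uninjected libraries at stage 34, and overlapping groups at stage 26. Xetro.D00311, described as a potassium channel subunit, differed by 1.01 (FDR 0.0259), with a log2 fold change of 1.11 at stage 34 and 0.10 at stage 26. *trdn* (-0.62, FDR 0.0497) and *fli1*, an ETS factor of blood vessels (-0.59, FDR 0.0526), were lower relative to uninjected embryos at stage 34 than at stage 26. Xetro.H01339 differed by -1.87 (FDR 0.00689), being raised at both stages and more at stage 26.

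Between the MO and KO effects, Xetro.H01339 differed by 2.38 (FDR 1.54e-05), Xetro.A01442 by 0.87 (FDR 0.063), *tbx20* by 0.68 (FDR 0.00176), *clcn2* by 0.61 (FDR 0.00195), *chrne* by -0.99 (FDR 0.0933) and *slc6a8* by -1.17 (FDR 0.00149). The experiments used different frogs, so the kind of perturbation and the clutches cannot be told apart.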

How the results depend on the processing

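Of the 16 members lowered in *t/t2* KO, 14 were called under all 10 alternatives, as were 15 of the 17 lowered and 4 of the 7 raised in *t/t2* MO against uninjected embryos. No called log2 fold change of a named member turned round in these alternatives. Leaving out 1 clutch gave 15 to 17 members lowered in *t/t2* KO and 15 to 18 lowered in *t/t2* MO. It gave 4 to 9 raised in *t/t2* MO (4 without frog E), 3 to 5 at stage 26, 1 to 10 called in the interaction of *t/t2* MO (1 without frog E, 5 without frog F) and 3 to 6 in the MO effect minus the KO effect (3 without cross 1). It also gave 7 to 15 lowered at stage 34 relative to stage 26 in wild-type embryos (7 without cross 2) and 11 to 15 raised. Without the filter on the mean count, 11 members were raised in *t/t2* MO against uninjected, 12 against cMO and 9 against uninjected at stage 34. With low counts removed before the fit, 2 members were called in cMO. At an FDR of at most 1%, 3 were raised in *t/t2* MO at stage 26, 2 were called in the interaction of *t/t2* MO, and 6 rose and 5 fell with stage in wild-type embryos.

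With the clutch as a replicate block, 16 members were lowered in *t/t2* KO, 19 lowered and 7 raised in *t/t2* MO, and 10 differed between the MO and KO effects, against 6 without the block (Xetro.B00595, *glra1*, *gja1* and *cps1* were added). The block changed no other count by more than 1.5 times. Members with few counts limit what can be said: 36 of the 134 lay at or under a mean count of 7 and were not called, and the cause of the calls that changed was not tested.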

Other observations

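The filter on control counts left out members that were higher in morphants. Among them was *dysf*, which codes for dysferlin, a ferlin of muscle membrane repair. *dysf* was singled out after its values were seen, and it was not the only member under the filter to be higher in 6 of 6 *t/t2* MO pairs. It had 53.9, 73.6 and 51.5 normalized counts in *t/t2* MO, against 4.60, 7.63 and 3.97 in uninjected embryos at stage 26, and 22.4, 67.2 and 19.4, against 4.29, 2.62 and 5.70, at stage 34. The cMO libraries held 1.94 to 9.07 counts and the *t/t2* KO libraries 3.89 to 19.2. The log2 fold change of *dysf* was 3.28 ± 0.38 in *t/t2* MO (edgeR, FDR 1.11e-06; higher in 6 of 6 pairs) and 0.55 ± 0.44 in *t/t2* KO (FDR 0.696), and the difference was 2.71 ± 0.60 (FDR 0.00267).

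*hcn4*, the main pacemaker channel of the heart, was singled out after its values were seen. It rose at stage 34 relative to stage 26 by 1.22 ± 0.39 (edgeR, FDR 0.0372) in wild-type and by 0.73 ± 0.31 (FDR 0.0729) in uninjected embryos on the log2 scale. The calls were lost without cross 1 or cross 9 in wild-type embryos and without any 1 of the 3 frogs in uninjected embryos. *hcn4* was not called in *t/t2* KO or *t/t2* MO.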
